A study of Mus musculus with 123 samples.

Results

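Nicotinic acetylcholine receptors and 5-HT3 serotonin receptors are ligand-gated ion channels of the same (Cys-loop) family, and 9 subunit genes, Chrna3, Chrna4, Chrna6, Chrna7, Chrnb2, Chrnb3, Chrnb4, Htr3a and Htr3b, were followed here in mouse dorsal root ganglion (DRG) neurons. They were found by their symbols and are 9 of the 24134 genes in the deposited tables. Each channel is a ring of subunits around a pore that passes cations. Alpha subunits of the nicotinic type carry most of the acetylcholine site and usually assemble with beta subunits, whereas Chrna7 can form a receptor by itself. Htr3a can also act alone, and Htr3b joins it in mixed channels. In the DRG these receptors are known from subsets of sensory neurons that differ in the pain, itch or touch signals they carry.

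Mice of 2 months underwent sciatic nerve transection (SNT) on the right side, which cuts the peripheral axons of many neurons of the lumbar ganglia, and the ganglia of the other side served as control. At day 3 the mice were F1 animals of a CAST/Eij father and a C57BL/6 mother, which the methods of the study give as female. For day 3 the labels give L5 ganglia (the design text L3-5), and reads had 50 bases. At day 7 they were C57BL/6 mice of both sexes, ganglia L3-L5 were used, and reads had 75 bases. Single neurons picked by hand were amplified by Smart-seq2, which makes full-length cDNA of 1 cell and marks no molecules, and 106 of 117 cell libraries were kept by the authors (day 3, 18 control and 41 SNT cells; day 7, 14 and 33). Pooled neurons of each side at day 3, of which the labels count 106, were lysed together and split into 3 libraries.

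Levels are given as CPM, the deposited expected counts scaled to 1000000 per library. Pooled control libraries held 563462 to 839135 counts and pooled SNT libraries 1148849 to 2003817. Kept cells held 261351 to 1849130 counts. The labels tie no cell to an animal, so the cells of a side and day are 1 sample, and ratios between cells are described without a test. The 3 pooled libraries of a side are parts of 1 lysate, so their p-values measure technical spread only. Strain, sex, read length and ganglia differ between the days, so values of the days stand side by side and no test was made between them. The side of a pooled library was taken from its column name and title. The source label describes all 6 pooled libraries as intact, and the number of neurons in a pool is given differently in the methods of the study. A row of identifiers in that table assigns the 6 columns to the opposite sides, which would reverse the sign of every pooled difference below. By the names, the injury gene Atf3 was at 1466 CPM in pooled SNT libraries and 13.4 CPM in pooled controls, and in cells it was above 100 CPM in 30 of 41 SNT cells and 0 of 18 control cells at day 3. All 6 sensory neuron markers listed (Tubb3, Snap25, Prph, Isl1, Avil, Rbfox3) were present in each group. Of the markers of sympathetic neurons, which use nicotinic receptors for ganglionic transmission, Hand2 was at 0 in every library, and the summed level of the list was at most 3.273 CPM in a pooled library and 25.4 CPM in a cell.

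Several of the genes are neighbours. On GRCm38, Chrna5, Chrna3 and Chrnb4 lie next to each other on chromosome 9, as do Htr3a and Htr3b elsewhere on that chromosome. Chrnb3 and Chrna6 are adjacent on opposite strands of chromosome 8, and Chrnb2, Chrna7 and Chrna4 lie alone on chromosomes 3, 7 and 2. Chrnb4 and Htr3a overlap antisense genes and Chrnb2 overlaps Adar on the other strand. No source says that strand was used in counting, and reads of such partners then cannot be told apart.

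RefSeq promoter windows (GRCm38.p6, 250 bases before to 50 bases after the start) were matched for 6 of the 9 genes. Those of Chrna3 and Chrnb4, neighbours found in the same cells, and of Htr3b, which fell in pooled neurons, are shown 5′ to 3′ on the minus strand, from chr9:55026513-55026812, chr9:55048495-55048794 and chr9:48964941-48965240. Capitals mark a GC box (GGGCGG or its reverse complement CCGCCC).
Chrna3: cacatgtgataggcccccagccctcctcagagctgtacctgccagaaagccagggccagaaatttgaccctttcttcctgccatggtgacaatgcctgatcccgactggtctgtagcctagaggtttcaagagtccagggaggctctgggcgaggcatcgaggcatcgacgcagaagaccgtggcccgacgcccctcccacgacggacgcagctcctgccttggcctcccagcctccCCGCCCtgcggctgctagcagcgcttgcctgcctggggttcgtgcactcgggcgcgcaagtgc
Chrnb4: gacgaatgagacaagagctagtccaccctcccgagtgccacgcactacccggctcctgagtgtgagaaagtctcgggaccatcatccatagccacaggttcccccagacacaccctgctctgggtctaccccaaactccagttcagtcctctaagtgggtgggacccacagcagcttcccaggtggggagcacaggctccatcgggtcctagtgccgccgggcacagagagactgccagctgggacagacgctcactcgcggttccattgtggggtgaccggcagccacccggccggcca
Htr3b: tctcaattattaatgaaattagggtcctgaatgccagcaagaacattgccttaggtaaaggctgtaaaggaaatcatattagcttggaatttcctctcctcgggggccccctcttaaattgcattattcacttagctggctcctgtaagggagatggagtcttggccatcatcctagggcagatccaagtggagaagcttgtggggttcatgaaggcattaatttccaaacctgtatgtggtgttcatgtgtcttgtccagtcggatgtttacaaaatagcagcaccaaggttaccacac
The GC box was found in 4 of the 6 windows, those of Chrna3, Chrna4, Chrna7 and Chrnb2, and in 35.7% of 32851 windows of all genes. The AP-1 letters TGANTCA, searched on both strands because Atf3 and Jun belong to the proteins that bind such sites, were in 0 of 6 windows and in 7.81% of all. The CRE letters TGACGTCA were in 0 of 6 and in 1.79% of all. A match or its absence describes the letters of these windows only.

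In pooled neurons Chrna6 and Htr3b fell on the SNT side, Chrnb4 rose, and the other members tested did not pass both limits. Calls rested on edgeR's quasi-likelihood test and needed a log2 change of more than 1 in size together with p under 0.05 after Benjamini-Hochberg adjustment. Of all 13509 genes tested, 15.94% were called, 8.831% as higher and 7.114% as lower. Of the 9 members, 7 passed the filter of a mean of 1 CPM and 3 of those were called, 1 higher and 2 lower. The median log2 change of the 7 was -0.53, beside 0.02 for all genes tested. Of 2154 called genes 1193 were higher, and with library size alone as the scale 978 of 2243 were, with a median of -0.14 over all genes and 3 members called again.

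**Figure D1:**
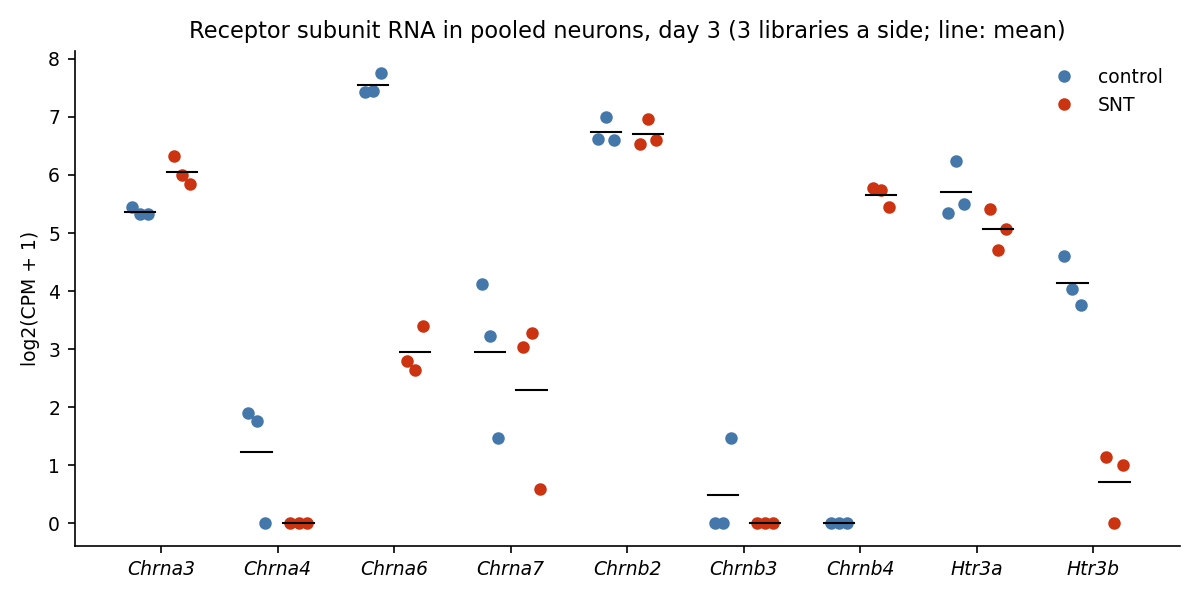
Level of each receptor subunit in pooled neurons at day 3, as log2(CPM + 1), with 1 point for each of 3 control and 3 SNT libraries and a line at the mean of the plotted values. Chrna6 and Htr3b lie lower in all 3 SNT libraries than in any control library, Chrnb4 lies at 0 in all 3 control libraries, and Chrnb2 overlaps.

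Chrna6, an alpha subunit known from nociceptors and dopamine neurons, was at 172, 173 and 215 CPM in the control libraries and at 5.98, 5.22 and 9.48 CPM in the SNT libraries. The groups lay far apart, and the log2 change was -4.51 (SE 0.26, edgeR adjusted p of 4.0e-17). Htr3b was at 23.4, 15.5 and 12.6 CPM in control and at 1.196, 0 and 0.998 CPM in SNT libraries, where 4 counts were seen in all. Its log2 change was -4.08 (SE 0.77, adjusted p = 6.3e-05, edgeR). Its partner Htr3a, the subunit that 5-HT3 receptors require, was at 39.9, 75.1 and 44.4 CPM in control and 41.8, 25.2 and 32.4 CPM in SNT libraries. These ranges overlapped, and the change on the log2 scale, -0.53 (SE 0.28, adjusted p = 0.18, edgeR), passed neither limit.

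Chrnb4 was listed at 0 in all 3 control libraries and at 53.9, 52.2 and 42.5 CPM in the SNT libraries. Set against 3 counts over the control group, 1.41 CPM, its level was at least 34.6-fold higher on the SNT side (adjusted p = 2.8e-11, edgeR). Chrna3, with which Chrnb4 forms the main ganglionic receptor, was at 42.6, 39.3 and 39.04 CPM in control and 79.5, 62.7 and 56.4 CPM in SNT libraries. All SNT values lay above all control values, and the log2 change of 0.87 (SE 0.25, adjusted p = 0.0076, edgeR) passed the limit on p but not on size. With SNT library 1 left out it passed neither (0.73, adjusted p = 0.066, edgeR). Chrna5, their neighbour, was at 0 in control and at most 1.29 CPM in SNT libraries.

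Chrnb2, the beta subunit of most brain nicotinic receptors, was at 97.6, 128 and 95.8 CPM in control and 91.6, 124 and 95.8 CPM in SNT libraries. The values overlapped, and the log2 change was 0.10 (SE 0.20, edgeR adjusted p of 0.78). Adar, which it overlaps, was at means of 34.7 and 42.99 CPM. Chrna7 was at 16.5, 8.34 and 1.77 CPM against 7.173, 8.70 and 0.50 CPM, and its log2 change of -0.67 had an SE of 0.73. Chrna4 and Chrnb3 were below the filter, with 4 counts and 1 count in control libraries and none in SNT libraries.

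Markers of neuron classes and of glia moved in the same pools. Of 8 markers of non-peptidergic (NP) nociceptors 7 fell, among them Mrgprd, from 1011 ± 68.6 to 1.07 ± 1.37 CPM (SD, n = 3), and P2rx3, from 782 ± 39.6 to 298 ± 11.1 CPM. Of 6 peptidergic (PEP) markers 3 fell, all 4 markers of C-fibre low-threshold mechanoreceptors (of which Gfra2 is also an NP marker) fell, and of 7 large myelinated (LM) markers 3 rose, Nefh among them. Of 2 itch neuron markers tested 1 rose and 1 fell, and 1 of 2 immune and 1 of 2 endothelial markers tested rose. Of 10 glial markers 5 fell and 1 rose, and their summed level was 12636 to 15313 CPM in control and 6156 to 6951 CPM in SNT libraries. The part of these shifts in the members' changes was not tested, and in pooled RNA fewer neurons of a class and less RNA per neuron cannot be told apart. In single cells at day 3 the log2 ratio of mean CPM + 1 was -2.16 for Mrgprd, as low as in direction in the pools. For P2rx3 it was 0.15 and for Nefh -0.38, opposite in direction to the pools.

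In single cells at day 3 most subunits had lower mean levels on the SNT side, carried by small numbers of cells, and Chrnb2 alone was found in every cell. By log2 ratios of mean CPM + 1, 6 of 9 members lay below -1 and 0 above 1, where 6.35% and 6.78% of 13644 genes did. The median ratio was -2.43 for the 9 members and -0.05 for all genes. Per kilobase of transcript, control-side means ran from Htr3a (114 CPM per kb) through Chrna7 (77.8), Chrna6 (59.7), Chrna3 (32.6), Chrnb2 (22.7), Chrnb4 (16.1), Htr3b (7.238) and Chrnb3 (4.68) to Chrna4 (0.33). For each but Chrnb2 the SD over cells exceeded the mean, so neighbours in this order did not differ beyond their spread. On the control side of day 7 the order per kilobase was Htr3a (409 CPM per kb), Chrna7 (64.9), Htr3b (38.05), Chrnb2 (31.2) and Chrna6 (8.26), and Chrna4, Chrna3, Chrnb4 and Chrnb3 were at 0.084, 0.070, 0.054 and 0 CPM per kb.

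**Figure D2:**
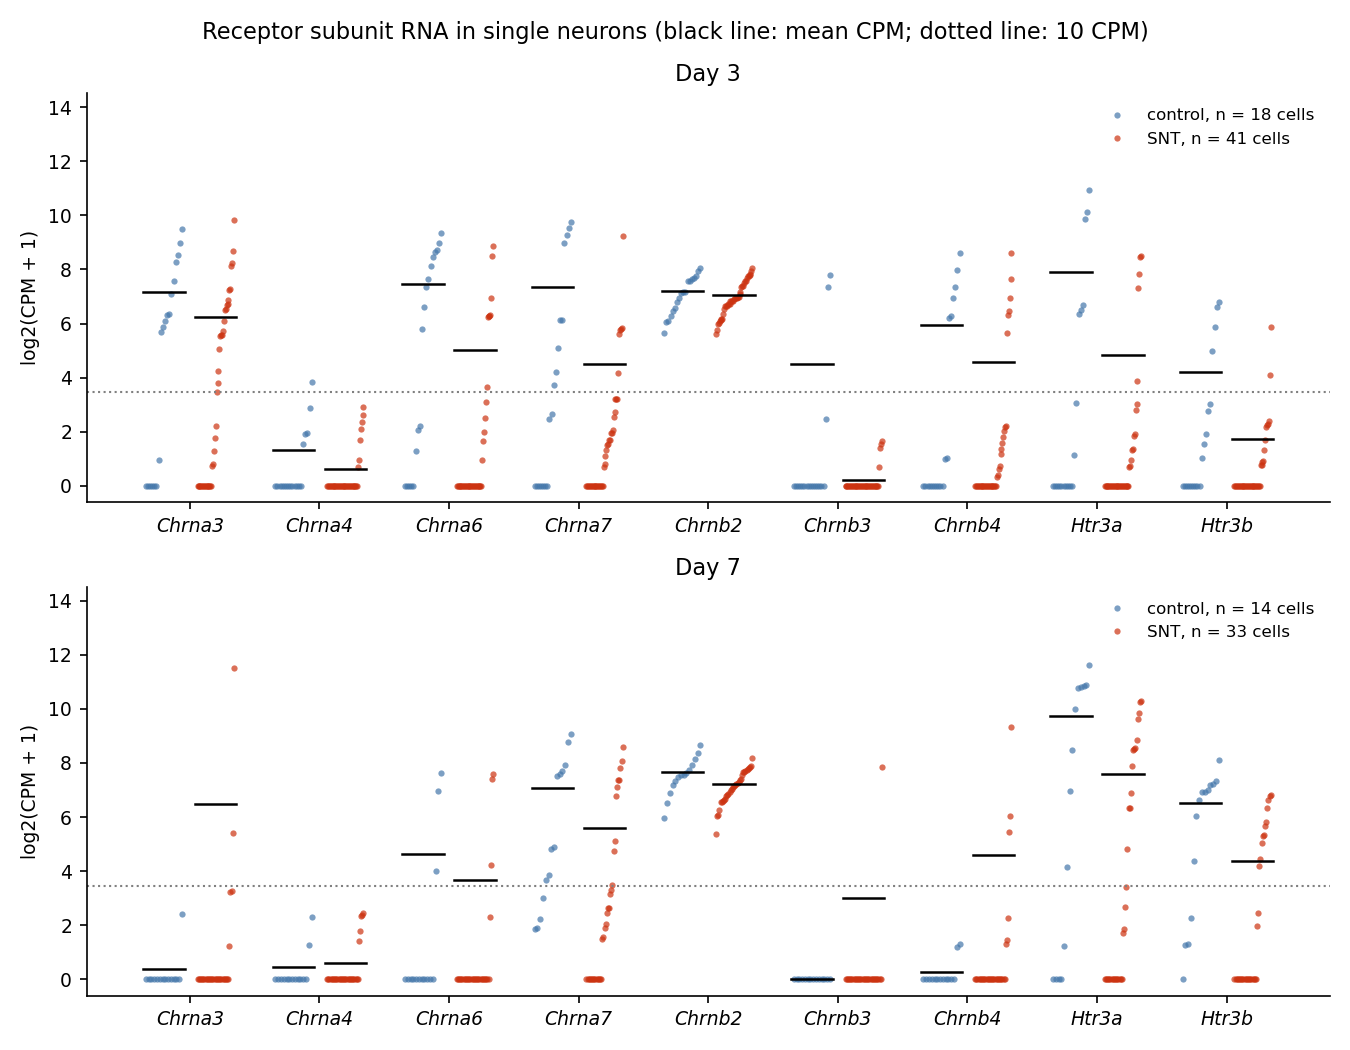
Level of each subunit in single neurons, as log2(CPM + 1), at day 3 (above) and day 7 (below), with 1 point a cell, a black line at the mean CPM of each side and a dotted line at 10 CPM. Chrnb2 lies above the dotted line in all 106 cells, and the other subunits in a part of the cells of either side.

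Chrna6 was above 10 CPM in 10 of 18 control cells (55.6%, with 30.8 to 78.5 as its 95% interval by the exact binomial method) and in 8 of 41 SNT cells (19.5%, 8.82 to 34.9). Its control values ran from 0 to 653 CPM with a median of 76.3, and its SNT values from 0 to 464 CPM with a median of 0. The means were 174 and 31.3 CPM, a log2 ratio of -2.43. The 2 highest control cells lay above every SNT cell, and otherwise the ranges overlapped.

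Chrna7, the subunit of the alpha-bungarotoxin-binding receptor, was above 10 CPM in 9 of 18 control and 6 of 41 SNT cells. Control cells reached 860 CPM (median 8.80), and SNT cells reached 609 CPM (median 0.73), with the next SNT cell at 55.7 CPM. The mean ratio was -2.83 (162 against 21.8 CPM), and without the highest cell of each side it was -3.90. Htr3a was above 10 CPM in 6 of 18 and 5 of 41 cells, reached 1945 and 358 CPM, and had a ratio of -3.06 (238 against 27.6 CPM). Htr3b was above 10 CPM in 4 of 18 and 2 of 41 cells, with highest values of 110 and 56.9 CPM and a ratio of -2.47. For all 3 genes at least 3 control cells lay above every SNT cell, while the medians of Htr3a were 0 on both sides.

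Chrna3 was the most widespread of the selective subunits, above 10 CPM in 11 of 18 control cells (61.1%, 35.7 to 82.7) and 20 of 41 SNT cells (48.8%, 32.9 to 64.9). Its highest cells were at 722 and 913 CPM and its medians at 62.2 and 3.65 CPM, with means of 142 and 74.3 CPM and a ratio of -0.93. Chrnb4 was above 10 CPM in 6 of 18 and 6 of 41 cells, with nearly equal highest cells at 392 and 391 CPM and a ratio of -1.34 (60.1 against 23.1 CPM). Single cells and pooled libraries differed in direction for both Chrnb4 and Chrna3, whose pooled log2 change was 0.87. The 18 control cells included 6 with at least 73.2 CPM, whereas the pooled control libraries held no count. The cells picked differed between the sides, since the PEP marker Calca was above 1000 CPM in 12 of 18 control and 12 of 41 SNT cells. Among these Calca-high cells Chrnb4 was above 10 CPM in 6 of 12 on either side. Chrna3 was above 10 CPM in 9 of 12 control and 10 of 12 SNT cells among them. The part of this in the ratios was not tested. Chrnb3 was above 10 CPM in 2 control cells, at 219 and 163 CPM, and in 0 of 41 SNT cells, which allows a share of up to 7.317%. Chrna4 passed 10 CPM in 1 control cell, at 13.2 CPM.

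Chrnb2 ranged from 49.8 to 267 CPM in control cells (mean 145 ± 66.1 SD, n = 18) and from 48.5 to 265 CPM in SNT cells (mean 132 ± 56.6 SD, n = 41). Both sides covered the same range, and the ratio was -0.14.

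At day 7, 8 members passed the same filter, 3 of them lay below -1 (3.63% of 13264 genes did) and 3 above 1 (5.99%). The median ratio of the 8 was -0.71, beside -0.04 for all genes. Htr3a reached 3155 CPM in control cells (median 238, 9 of 14 above 10 CPM) and 1248 CPM in SNT cells (median 2.32, 13 of 33), with a ratio of -2.16 and 5 control cells above every SNT cell. Htr3b had a median of 108 CPM in control (10 of 14 cells) and 0 in SNT cells (11 of 33), a ratio of -2.14 and 7 control cells above every SNT cell. Chrna7 was above 10 CPM in 10 of 14 and 10 of 33 cells, with medians of 28.1 and 2.69 CPM and a ratio of -1.49. Chrnb2 was again in every cell, at 61.3 to 404 CPM in control (mean 199.6 ± 92.2 SD, n = 14) and 40.6 to 292 CPM in SNT cells (mean 147 ± 59.2 SD, n = 33), overlapping ranges with a ratio of -0.43. Chrna4 was above 10 CPM in 0 cells of either side.

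The day-7 cells came from mice of both sexes, and the 5-HT3 subunits lay lower on the SNT side within each. Htr3a had ratios of -3.43 in females (16 SNT and 7 control cells) and -1.29 in males (17 and 7), and Htr3b -2.91 and -1.71. Chrna7 had -3.54 in females and -0.64 in males, and was above 10 CPM in 1 of 16 and 9 of 17 SNT cells. Chrna6, at -0.99 over both sexes, had 0.40 in females and -4.67 in males. These values rest on few cells, since Chrna6 was above 10 CPM in 3 of 16 SNT and 1 of 7 control cells of females. In males it was above 10 CPM in 0 of 17 SNT and 2 of 7 control cells, the 2 at 196 and 15.2 CPM. The cells picked differed too, since Calca was above 10 CPM in 3 of 16 female and 10 of 17 male SNT cells, and the part of this in the ratios was not tested.

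The 3 members above 1 at day 7 were highest in the same SNT-side cell, of a female mouse (cell s7.6, 616035 counts). It held Chrna3 at 2893 CPM, Htr3a at 1221, Chrnb4 at 644, Chrnb3 at 232, Chrna6 at 170 and Htr3b at 109 CPM, with Chrna7 at 0 and the lowest Chrnb2 of the SNT cells, 40.6 CPM. It supplied 98.0% of the summed Chrna3, 85.0% of the Chrnb4 and all of the Chrnb3 of its side. Without the highest cell of each side the ratio of Chrna3 went from 6.11 to 1.53, of Chrnb4 from 4.32 to 2.05 and of Chrnb3 from 3.01 to 0. In males alone the ratios were 2.16 for Chrna3 and 2.63 for Chrnb4, with 1 and 2 of 17 SNT cells above 10 CPM and 0 of 7 control cells for either gene. In that cell Calca was at 4884 CPM, Th, which makes catecholamine precursors, at 679 CPM and Atf3 at 0. The sympathetic markers Dbh, Phox2a, Slc6a2 and Hand2 were all at 0.

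**Figure D3:**
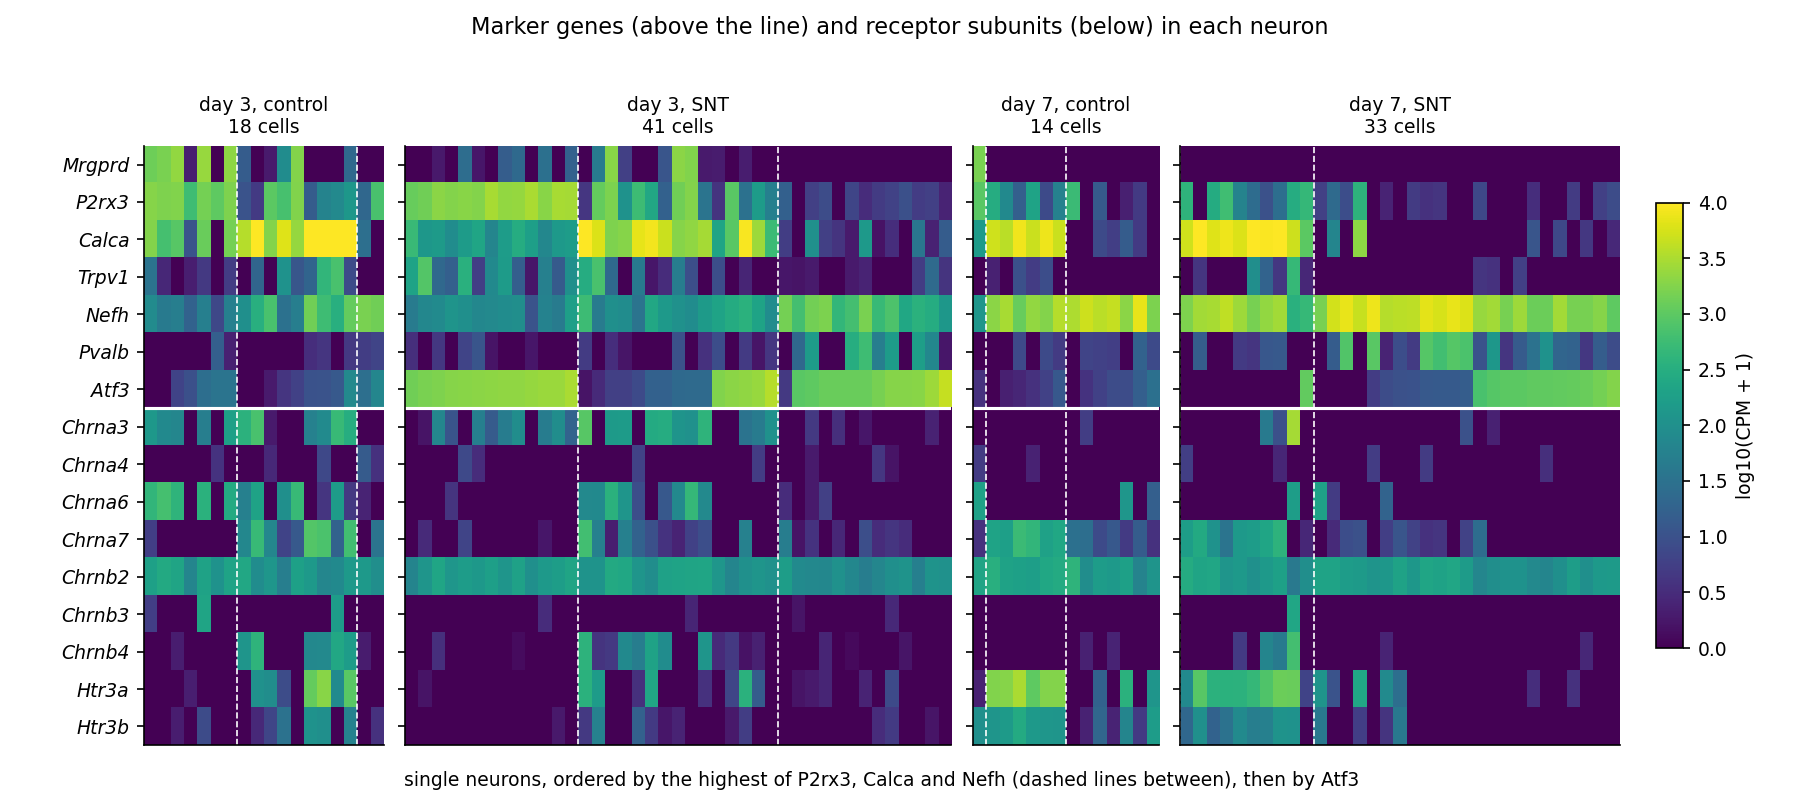
Marker genes (7 upper rows) and the 9 subunits (lower rows) in the 106 kept neurons, coloured by log10(CPM + 1), with cells of each side and day ordered by which of P2rx3, Calca and Nefh is highest (dashed lines) and then by Atf3. Chrna6 lies with Mrgprd and with part of the Calca-high cells. At day 7 Htr3a, Htr3b and Chrna7 lie mostly with cells high in both Calca and Nefh, and also in some cells low in Calca. At day 3 only 2 of 59 cells had both Calca and Nefh above 1000 CPM, and these 3 subunits were also found outside them. Where Nefh is the highest of the 3, 12 of 13 (day 3) and 18 of 23 (day 7) SNT cells have no member but Chrnb2 above 10 CPM. Among control cells this holds for 0 of 2 (day 3) and 0 of 7 (day 7). Some of these control cells passed 10 CPM narrowly, cell n3.3 by Chrna4 at 13.2 CPM and cells n7.8 and n7.12 by Chrna7 at 11.8 and 13.4 CPM. Cells with Pvalb above 100 CPM, 5 at day 3 and 8 at day 7, were all SNT cells.

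The subunits were then set beside class markers within cells. The marker levels of 100 and 1000 CPM used here were chosen with the values known, cells are not replicates, and the counts are descriptions. Chrna6 followed Mrgprd, a receptor of NP nociceptors. At day 3 it was found in all 6 control cells with Mrgprd above 1000 CPM, at 280 to 653 CPM, and in all 3 such SNT cells, at 74.8, 362 and 464 CPM. At day 7 the only cell with Mrgprd above 1000 CPM held Chrna6 at 196 CPM. Over the 18 control cells of day 3 Spearman's rho of Chrna6 with Mrgprd was 0.72 and with P2rx3, the ATP-gated channel of NP neurons, 0.54. The other 9 day-3 cells with Chrna6 had Mrgprd at up to 85.8 CPM and Calca, the CGRP gene of PEP neurons, at 1901 CPM or more, and 7 of them also held Chrna3 and Chrnb4.

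Chrna6 was not found together with Atf3. None of the 30 day-3 SNT cells with Atf3 above 100 CPM had Chrna6 above 10 CPM (highest 4.73 CPM), a count of 0 that allows a share of up to 10.0%. All 8 SNT cells with Chrna6 were among the 11 others. The same was seen among cells high in P2rx3. Of 13 SNT cells with P2rx3 and Atf3 both above 1000 CPM, 0 had Chrna6, which allows a share of up to 23.1%, and 9 had Chrna3, at up to 90.8 CPM. Of 4 SNT cells with P2rx3 above 1000 CPM and lower Atf3, all 4 had Chrna6, at 74.8 CPM or more, as did 6 of 7 control cells. At day 7, 0 of 12 cells with Atf3 above 100 CPM had a Chrna6 count, which allows a share of up to 25%. Over the 41 day-3 SNT cells rho of Chrna6 with Atf3 was -0.73.

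Of the 30 day-3 cells with Atf3 above 100 CPM, 12 had Chrna3 above 10 CPM (highest 105 CPM), 2 had Htr3a, 1 had Chrna7, all 30 had Chrnb2, and 0 had Chrnb4, Chrnb3, Chrna4 or Htr3b. Chrnb4 did not exceed 3.69 CPM in any of them. All 6 SNT cells with Chrnb4 above 10 CPM lay among the 11 with less Atf3, and the pooled SNT libraries, with Atf3 at 1372 CPM or more, held Chrnb4 at 42.5 to 53.9 CPM. Of the 30 cells, 2 had Calca above 1000 CPM. In those 2 cells Chrna3 was at 32.4 and 45.4 CPM, Htr3a at 352 and 13.7 CPM and Chrnb4 at 0.54 and 1.29 CPM.

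Chrnb4 occurred with Chrna3. At day 3, 11 of 12 cells with Chrnb4 had Chrna3, whereas 20 of 31 cells with Chrna3 lacked Chrnb4. All 12 had Calca at 1901 CPM or more. At day 7 it was above 10 CPM in 3 SNT cells, all with Calca at 4884 CPM or more. Cells with Chrna3 alone included those high in P2rx3. Htr3a, Htr3b and Chrna7 also occurred together, at day 3 in 4 of 59 cells, part of which held Chrna3 and Chrnb4 as well. At day 7 all 15 cells with both Calca and Nefh, the heavy neurofilament of myelinated neurons, above 1000 CPM had Htr3a, 14 had Chrna7 and 14 had Htr3b. The 2 such cells at day 3 had all 3, together with Chrna3 and Chrnb4.

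**Figure D4:**
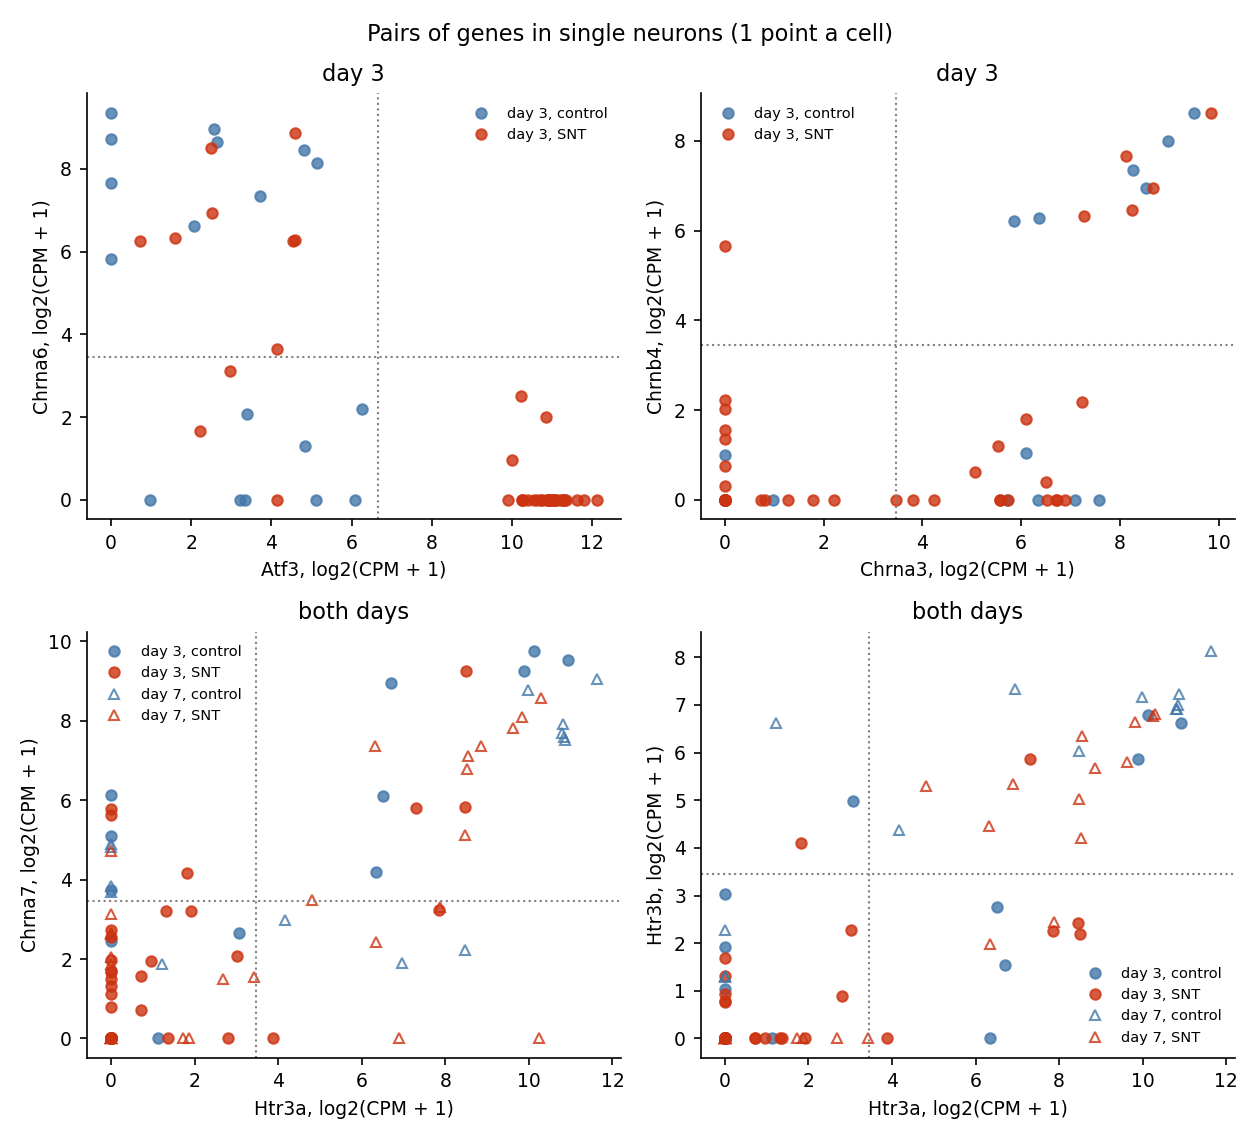
Pairs of genes in single neurons, each axis as log2(CPM + 1), filled circles for day 3 and open triangles for day 7, with dotted lines at 10 CPM (100 CPM for Atf3). No day-3 cell lies in the upper right area of Atf3 and Chrna6, 11 of 12 day-3 cells with Chrnb4 above 10 CPM have Chrna3 above 10 CPM, and Chrna7 and Htr3b lie high in most cells with high Htr3a.

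Within that day-7 set the levels also lay lower on the SNT side. Its SNT cells came from males except cell s7.1, whereas its control cells came from both sexes, and the part of sex was not tested. Htr3a was at 1016 to 3155 CPM (median 1809) in 6 control cells and 78.9 to 1248 CPM (median 371) in 9 SNT cells, so its ranges overlapped. Htr3b was at 120 to 278 CPM against 4.47 to 112 CPM, without overlap. Chrna7 also overlapped, at 183 to 531 against 8.94 to 380 CPM. Atf3 was at 0 in all 9 of these SNT cells and at up to 11.8 CPM in the 6 control cells. A further 6 day-7 cells, 3 of each side, had Htr3a at 16.9 to 354 CPM with Calca at no more than 13.6 CPM, Nefh at 1536 CPM or more and Chrna7 at no more than 10.3 CPM. Chrna6 was above 10 CPM in 4 of them, an occurrence of Chrna6 apart from Mrgprd and Calca.

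Large neurons with Pvalb, a marker of proprioceptors, held Chrnb2 and no other member above 10 CPM. This was so in 5 of 5 cells with Pvalb above 100 CPM at day 3 and 8 of 8 at day 7, all from the SNT side. In all, 18 of 41 SNT cells at day 3 and 19 of 33 at day 7 held no member but Chrnb2, beside 2 of 18 and 0 of 14 control cells. The part of this difference between the sides in the ratios above was not tested. Control cells n7.8 and n7.12 held a second member only by Chrna7 near the level, at 11.8 and 13.4 CPM.

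The genes most like each member over the 59 day-3 cells, among 10693 others, were found by Spearman's rho over libraries that differ in depth and side. Chrna6 was most like Rab6b, Sncg and Gpc3 (each 0.81), Chrna7 like Mob3b (0.73), Tubb4b (0.73) and Hrsp12 (0.71), and Chrnb2 like Mapk4 (0.72), Pvrl1 (0.69) and Dapk1 (0.68). Htr3a was most like Ly75 (0.73), Pcp4l1 (0.71) and the neurotrophin receptor Ngfr (0.70), Chrnb4 like Nfib (0.65), Ngfr (0.63) and Ppp3ca (0.62), and Chrna3 like Pkia, Ift122 and Cacna1c (0.65, 0.65 and 0.64). Over the 47 day-7 cells, rho with the first gene named for each member was 0.67 for Chrna7, 0.56 for Htr3a, 0.49 for Chrnb4, 0.05 for Chrna3, -0.02 for Chrnb2 and -0.13 for Chrna6. The other two genes named for Chrnb2 were at -0.37 and -0.16.

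Genes that fold, modulate or serve these receptors were read from the same pooled fit. Of 13 chaperones and Ly6-type regulators tested, 6 fell and 1 rose. Lypd1, a Ly6 protein that binds nicotinic receptors, was at 31.6, 13.1 and 14.2 CPM in control libraries and 0 in all SNT libraries, at least 31.7-fold lower. Nrn1 fell from 804, 620 and 582 to 93.9, 84.4 and 102 CPM (log2 change -2.67, SE 0.15), and in cells at day 3 it was above 10 CPM in 18 of 18 control and 23 of 41 SNT cells. Tmem35, the chaperone NACHO that Chrna7 and other receptors need for assembly, fell from 89.4, 77.5 and 72.8 to 20.9, 8.70 and 9.48 CPM (-2.43, SE 0.30). Lypd6 and Lypd6b fell by log2 changes of 4.01 and 2.28. The gene that rose was Lynx1, a Ly6 brake on nicotinic receptors, from 129 ± 10.3 to 352 ± 8.73 CPM (SD, n = 3), and Vsnl1, named with it after its values were seen, fell by 1.16. In cells the ratio of Vsnl1 was 0.59 at day 3 and 0.89 at day 7, opposite to the pooled fall, and those of Lypd1, Lypd6 and Lypd6b were -1.81, -1.73 and -2.08 at day 3 but 2.82, 0.56 and 0.48 at day 7. The cell ratio of Tmem35 was -1.76 at day 3 and -0.09 at day 7, and that of Nrn1 was -1.54 and -0.48.

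Of the other 9 nicotinic subunits 2 could be tested, and Chrna1, the muscle-type alpha subunit, rose from 0.95, 1.95 and 1.99 to 25.5, 10.1 and 18.2 CPM (log2 change 3.369, SE 0.65, adjusted p = 8.9e-05, edgeR). Of 5 genes of acetylcholine synthesis, transport and breakdown tested, Slc18a3, the vesicular transporter, rose from 0 to 4.78, 5.22 and 1.996 CPM, at least 2.65-fold. Of 3 muscarinic receptors tested, Chrm2 fell, from 4.13, 9.53 and 10.6 to 1.196, 0 and 1.497 CPM.

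Of 8 G protein-coupled serotonin receptors tested, 3 fell and 1 rose. Htr4 fell from 64.6, 45.3 and 53.2 to 10.8, 7.83 and 3.99 CPM (log2 change -2.71, SE 0.36), and in cells its ratio was -1.97 at day 3 and -2.14 at day 7. Htr2a and Htr1f fell by log2 changes of 1.85 and 1.29, but the day-3 cell ratio of Htr1f was 2.52. Htr1b rose from 0 to 4.32, 10.0 and 6.36 CPM, at least 4.63-fold, whereas its cell ratios were -1.34 at day 3 and -0.46 at day 7.

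Of 6 genes of serotonin synthesis, transport and breakdown tested, Slc6a4, the serotonin transporter, rose and Ddc, which makes serotonin from its precursor, fell, from 0, 3.58 and 7.099 CPM to 0 in all SNT libraries, with 7 counts in all. Slc6a4 was at 0 in all control libraries and 87.3, 80.1 and 54.9 CPM in SNT libraries, at least 51.2-fold higher. Cells of day 3 showed it above 10 CPM in 21 of 41 on the SNT side (highest 1442 CPM) and 0 of 18 on the control side (highest 5.56 CPM). At day 7 it passed 10 CPM in 12 of 33 SNT cells and was at 0 in all 14 control cells.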

How the data were processed

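Expected counts per gene were deposited by the authors, who per the labels and their processing notes used CASAVA 1.8.2, Bowtie2 and RSEM with mm9. File names call the values TPM, but whole numbers make up 60.7% to 93.6% of nonzero values per library and totals differ, so they were read as estimated counts, scaled to CPM over all genes and, for pooled libraries, rounded (totals changed by at most 0.00757%). Strand use and versions of Bowtie2 and RSEM are not given in the sources used here. The protocol label of day-7 cells names both days, and titles were followed. Dates stood in place of 27 gene symbols. Some marker genes are not reported here.

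Pooled libraries were compared with edgeR 4.0.16 in R 4.3.3 (quasi-likelihood F test, TMM, mean of at least 1 CPM, Benjamini-Hochberg adjustment over all genes). The script was tested on simulated data. Cells were summarised with Python 3.11.15, numpy 2.4.6, pandas 2.3.3 and scipy 1.17.1, as log2 ratios of mean CPM + 1, which understate the change of low genes. A cell counts as holding a gene above 10 CPM. Intervals are exact binomial (95%). The share allowed by a count of 0 was instead taken as 3 over the number of cells. This is lower than the upper end of the exact interval, which was 8.60% for Chrnb3 in 0 of 41 SNT cells at day 3. Intervals and limits for a count of 0 cover counting error over cells only. They treat cells as independent draws, although the labels tie no cell to an animal, so spread between animals is not in them. Reads carried no molecular identifiers. Alternatives used DESeq2 1.42.0, limma 3.58.1, other scaling, filters, left-out libraries, a replicate block, other pseudocounts, medians, thinned cells and all deposited cells. Columns of both sides shared replicate numbers, but the deviations of same-numbered libraries correlated at 0.068, -0.015 and -0.010, so numbers were not taken as pairs.

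The members, gene lists and marker levels were chosen with earlier results of these data known. Text names the 9 members, markers, up to 5 changed genes of each list by size of change, and the 3 genes most like a member (rho of at least 0.6, members in at least 10 day-3 cells).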

Additional observations from a re-analysis of the deposited data

Results flagged for a closer look

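Chrnb4 differed in direction between kinds of library at day 3. Its fitted log2 change in pooled neurons was 8.89, a value that depends on the prior count because the control libraries are at 0, and its log2 ratio in single cells was -1.34. The difference was not tested. Calca was above 1000 CPM in 12 of 18 control and 12 of 41 SNT cells at day 3, and Chrnb4 was above 10 CPM in 6 of those 12 on either side. Chrna3, its partner, was 0.87 in pooled neurons, past the limit on p but not on size, and -0.93 in day-3 cells, also not tested. With SNT library 1 left out the pooled change of Chrna3 passed neither limit. In cells, Chrnb4 was -1.34 at day 3 and 4.32 at day 7, and without the highest cell of each side -1.47 and 2.05. Chrnb3 was -4.28 at day 3, from 2 control cells above 10 CPM, and 3.01 at day 7, from 1 SNT cell. The days were set side by side only, no test was made between them, and strain, sex, read length and ganglia differ between the days.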

How the results depend on the processing

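In pooled neurons Chrna6, Chrnb4 and Htr3b were called under all alternatives run that tested them, including each left-out library. With a filter of 10 CPM 2 members were called, since Htr3b was no longer tested. Genes called numbered 2154, 1884 to 2148 with a library left out, and 1649 (10 CPM filter) to 2243 (library size alone) otherwise. With the replicate number as a block 2008 genes and the same number of members, 3, were called. Chrnb2 changed sign with library size alone (-0.06), and leaving out a library moved Chrna7 between -1.12 and 0.05 and Chrnb2 between -0.02 and 0.25, none of them called. With SNT library 1 left out Chrna3 was at 0.73 with an adjusted p of 0.066 (edgeR), no longer past the limit on p. In cells at day 3, 3 members lay below -1 by the median over cells with 4 members past the filter, in place of 6 of 9 by the mean, and 6 to 7 under the other alternatives. At day 7 the number was 3 to 4. Of single ratios, 6 of 45 at day 3 and 9 of 63 at day 7 crossed the log2 limit of 1 in size, in one direction or the other. Depth limits statements on Chrna4 and Chrnb3, with at most 4 counts in a pooled group.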

Other observations

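The 11 day-3 cells that the authors removed as outliers (4 control and 7 SNT) also held members. Chrnb2 was above 10 CPM in 4 of them (highest 43.98 CPM), Chrnb4 in 2 (34.4 CPM), Htr3a in 2 (124 CPM), Chrna3 in 1 (26.7 CPM) and Chrna7 in 1 (27.5 CPM), and Chrna6 did not exceed 8.59 CPM.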
